A study of Arabidopsis thaliana with 2 samples.

Results

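DNA methylation was examined at 10 genes that encode JmjC (Jumonji C) histone demethylases of Arabidopsis: JMJ14 to JMJ19, ELF6, REF6, JMJ13 and JMJ30. The genes were chosen by name, and each was taken with the 3000 bases upstream of its annotated start. Of the 56184 nuclear bins in the table of the study, 30 overlap these 10 windows. The annotation holds 27444 protein-coding genes.

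Whole-genome bisulfite sequencing compared miP1a-OX, a transgenic line that expresses FLAG-tagged miP1a from the 35S promoter, with Col-0, the wild type. Each genotype has 1 library, made from whole seedlings 12 days old and untreated, grown in long days (on MS plates by the methods of the study, on soil by the sample records). The 35S promoter drives expression in most tissues, and a library pools all tissues of a seedling. Bisulfite turns unmethylated cytosines into T, and the authors counted methylated and unmethylated cytosine calls in bins of 99 bases spaced 100 apart. The methylation level is the percent of calls that were methylated, over cytosines of every context on both strands.

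The table lists only bins in which Fisher's exact test between the libraries gave p of at most 0.01, or 4.72% of the nuclear bins of the genome. Every listed bin thus differs by selection, bins off the list are not analysed here, and a p printed below describes a bin rather than tests it anew. With 1 library each there is no replicate check, so the exact test sets 1 library against the other rather than genotype against genotype. The 30 bins held between 123 and 589 calls in miP1a-OX and between 217 and 541 in Col-0. Calls of one read are not independent molecules, so intervals and limits cover counting error only.

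JmjC proteins remove methyl groups from histone lysines. JMJ14 to JMJ19 belong to the KDM5 type, and of these JMJ14 to JMJ18 act on H3K4, a mark of active genes. ELF6, REF6 and JMJ13, of the KDM4 type, act on H3K27, a mark of Polycomb silencing. JMJ14 represses flowering, as does miP1a, a small B-box protein that binds the flowering regulator CONSTANS. In plants, DNA is methylated at CG, CHG and CHH sites (H is A, C or T). Many expressed genes carry CG methylation in their bodies, whereas transposons and repeats carry all contexts.

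The bins on which the results turn are printed below from the TAIR10.1 reference sequence of the plus strand, with CG dinucleotides in capitals. They show how few cytosines of each bin can belong to the CG context. The first 3 lie within JMJ14, the fourth in JMJ15, the fifth upstream of JMJ17 and the last within JMJ18.
JMJ14, chr4:11010001-11010099: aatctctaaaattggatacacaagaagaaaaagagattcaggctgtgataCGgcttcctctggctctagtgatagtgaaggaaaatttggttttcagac
JMJ14, chr4:11012301-11012399: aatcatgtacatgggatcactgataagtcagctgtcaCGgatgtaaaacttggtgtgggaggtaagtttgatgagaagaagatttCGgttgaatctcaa
JMJ14, chr4:11013201-11013299: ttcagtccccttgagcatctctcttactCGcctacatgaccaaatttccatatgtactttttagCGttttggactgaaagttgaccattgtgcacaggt
JMJ15, chr2:14713101-14713199: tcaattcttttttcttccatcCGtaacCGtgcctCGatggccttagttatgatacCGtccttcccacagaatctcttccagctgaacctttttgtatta
JMJ17, chr1:23554301-23554399: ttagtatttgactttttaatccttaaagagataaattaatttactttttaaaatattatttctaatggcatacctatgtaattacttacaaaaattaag
JMJ18, chr1:10939901-10939999: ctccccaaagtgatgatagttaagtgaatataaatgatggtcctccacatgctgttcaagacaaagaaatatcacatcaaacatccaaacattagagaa

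Across the 10 genes the differences were small. The number of the 30 bins that passed the threshold of the study, a difference of 0.4 or more (here with 10 calls or more per library), was 0, beside 0.4% of all listed nuclear bins. A difference of at least 20 percentage points was found in 1 bin (3.68% of all listed nuclear bins) and one of at least 10 points in 4 bins (33.9%). The median absolute difference was 4.53 points in the 30 bins and 8.03 points in all listed nuclear bins. Both libraries were under a level of 10% in 20 of the 30 bins, or 66.7%, beside 39.3% of all listed nuclear bins. After Benjamini-Hochberg adjustment over all bins of the genome, 8 of the 30 bins had p no higher than 0.01 by Fisher's exact test, against 32.2% of all listed nuclear bins.

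In miP1a-OX 13 of the 30 bins had the higher level and 17 the lower one, that is 43.3% higher, whereas 64% of all listed nuclear bins were higher. Within the genes 5 bins were higher and 11 lower in miP1a-OX. Upstream 8 were higher and 6 lower. The 64% includes bins outside genes, and the shares over all listed bins within genes or upstream of genes were not computed. These counts therefore do not set the JmjC genes apart from other genes. Of the 16 bins within genes, 11 were wholly coding and 5 were partly or wholly intronic. Their largest absolute difference was 8.85 points, against 27.6 points upstream. Of the 14 bins upstream, 7 lie in a neighbouring annotated gene or pseudogene and 7 in no annotated gene.

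**Figure D1:**
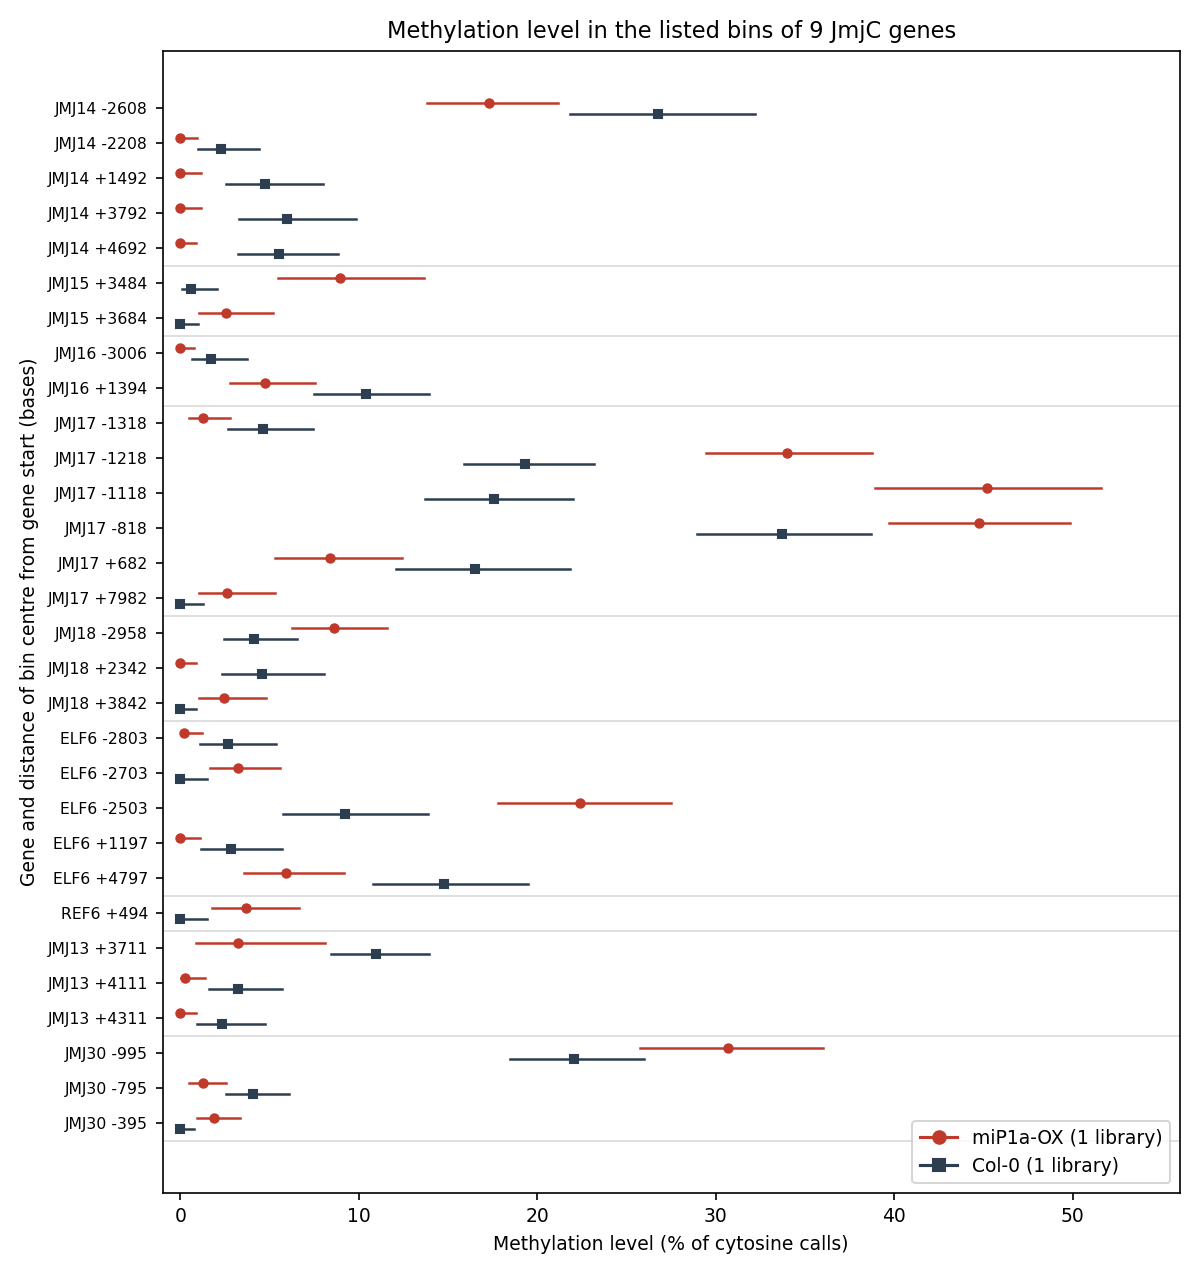
Methylation level (percent of cytosine calls) in the 30 listed bins of 9 JmjC genes, with miP1a-OX as circles and Col-0 as squares, 1 library each, and lines for 95% Clopper-Pearson intervals. Rows give the gene and the distance of the bin centre from the gene start. All 5 JMJ14 bins are lower in miP1a-OX, and the widest gap, 27.6 points, is upstream of JMJ17.

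The number of listed bins differed between the genes. JMJ17 had 6, JMJ14 and ELF6 had 5 each, JMJ18, JMJ13 and JMJ30 had 3 each, JMJ15 and JMJ16 had 2 each and REF6 had 1. JMJ19 (AT2G38950) had 0 listed bins among the 75 bins of its window, as did 27.9% of the protein-coding genes. Its methylation level is therefore not given here. In all, 3.49% of the 860 bins in the 10 windows were listed, beside 4.72% of all nuclear bins. The latter include bins outside genes, and the share over gene windows alone was not computed. By gene, the share was 5.95% for JMJ14, 5.08% for JMJ17 and 1.16% for REF6.

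**Figure D2:**
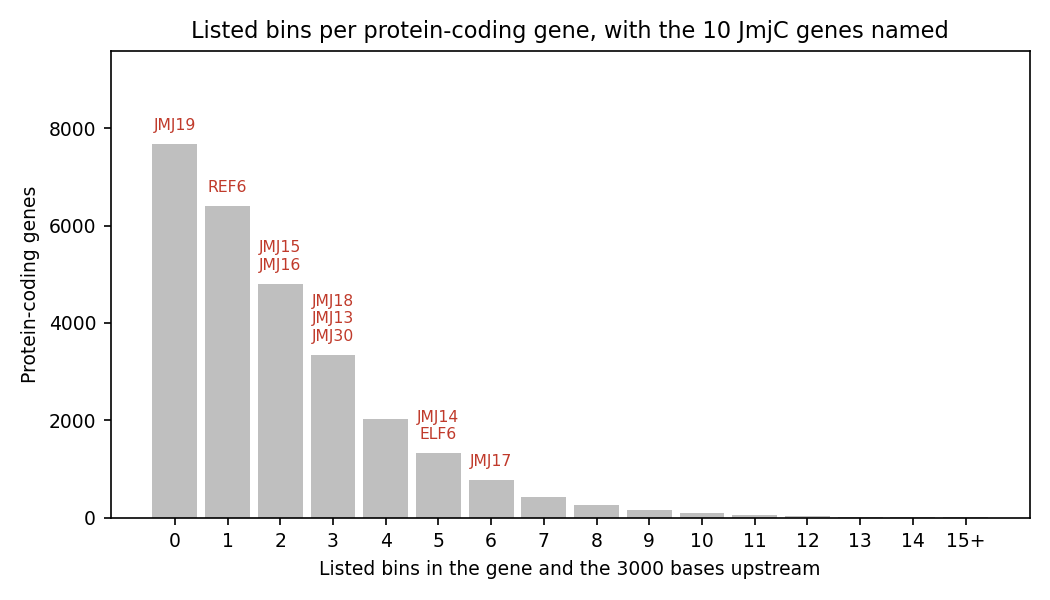
Number of protein-coding genes (vertical axis) with each number of listed bins in the gene and the 3000 bases upstream (horizontal axis), with the JmjC genes named above their bar. The median gene has 1 listed bin, JMJ19 has 0 and JMJ17 has 6. Counts are not adjusted for gene length, which is 2078 bases for the median protein-coding gene and 8679 bases for JMJ17.

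JMJ14 (AT4G20400) occupies bases 11008558 to 11013860 of chromosome 4, plus strand (TAIR10.1). Its 5 listed bins were all lower in miP1a-OX, and in 4 of them miP1a-OX had no methylated call. Of all listed nuclear bins 36% were lower in miP1a-OX, and 12.1% had methylated calls in Col-0 alone. Among the 1323 protein-coding genes with exactly 5 listed bins, 5.67% had all 5 lower in miP1a-OX.

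The bin centred 1492 bases after the start of JMJ14 lies wholly in the coding part of exon 5. In miP1a-OX 0 of 315 calls were methylated, so the level could be up to 0.952%, whereas in Col-0 13 of 274 were, a level of 4.74% (95% Clopper-Pearson interval 2.55% to 7.98%). The difference was -4.74 points (two-sided Fisher's exact test, p = 4.09e-05, adjusted p = 0.00361). The bin has 1 CG dinucleotide, so 2 of its 38 cytosines, or 5.26%, are in the CG context.

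The bin at 3792 bases lies in the coding part of exon 9. Methylated calls were 0 of 316 in miP1a-OX, which allows up to 0.949%, and 14 of 234 in Col-0, a level of 5.98% (3.31% to 9.83%). The difference of -5.98 points was the largest within JMJ14 (two-sided Fisher's exact test, p = 5.06e-06, adjusted p = 0.000687). The third bin, at 4692 bases, lies in the intron before exon 12 except for 2 coding bases. There 0 of 409 calls were methylated in miP1a-OX, which allows up to 0.733%, and 16 of 289 in Col-0, a level of 5.54% (3.20% to 8.84%; difference -5.54 points, two-sided Fisher's exact test, p = 5.81e-07, adjusted p = 0.000116). In these bins 4 of 40 and 4 of 42 cytosines are in the CG context.

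Over the 3 bins within JMJ14 together, 0 of 1040 calls were methylated in miP1a-OX (upper limit 0.288%), and 43 of 797 in Col-0, a level of 5.40% (3.93% to 7.20%). These bins were listed because the libraries differ there, so the pooled levels describe the 3 bins and are no estimate for the gene. The limit and interval treat calls as independent, which calls of one fragment are not. The 3 bins lie apart from one another, in exon 5, in exon 9 and at the intron before exon 12. The methylated calls in Col-0, 13, 14 and 16, were fewer than the cytosines on the richer strand of each bin, 23, 28 and 25, so a single unconverted or methylated DNA fragment could supply them in each bin. Among the listed chloroplast bins, whose DNA is taken as unmethylated, the level was 0.177% in miP1a-OX and 0.290% in Col-0. These bins too were listed because the libraries differ, so their level is not a conversion rate. An average level also does not show whether single fragments were left unconverted. The part of incomplete conversion in the JMJ14 bins was not tested.

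The other bins in the JMJ14 window lie in the neighbouring gene LSD1 (AT4G20380), which restrains plant cell death and is not a demethylase. The bin centred 2608 bases upstream covers 94 coding bases of LSD1. Its level was 17.3% over 434 calls in miP1a-OX (13.8% to 21.2%) and 26.8% over 295 calls in Col-0 (21.8% to 32.2%), a difference of -9.50 points (two-sided Fisher's exact test, p = 0.00229, adjusted p = 0.0755). This was the largest difference in the window, and 12 of the 41 cytosines of the bin are in the CG context, 29.3%. In the bin at 2208 bases upstream, largely intronic in LSD1, 0 of 392 calls were methylated in miP1a-OX, which allows up to 0.765%, and 8 of 352 in Col-0, a level of 2.27% (difference -2.27 points, two-sided Fisher's exact test, p = 0.00241, adjusted p = 0.0783). No listed bin lies between the end of that bin, 2159 bases before JMJ14, and the bin in exon 5.

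**Figure D3:**
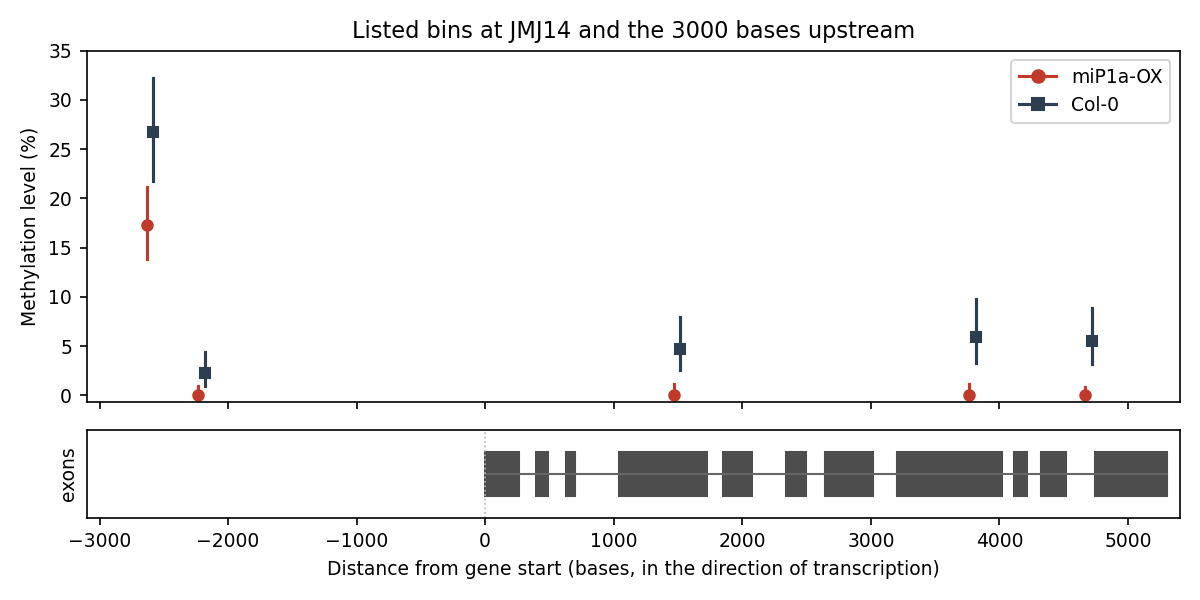
Methylation level (vertical axis, percent) of the 5 listed bins at JMJ14 against the distance from the gene start in bases, with miP1a-OX as circles, Col-0 as squares, lines for 95% Clopper-Pearson intervals and exons as blocks. The 3 bins within the gene are at 0% in miP1a-OX and between 4.74% and 5.98% in Col-0.

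At the other KDM5-type genes the listed bins went in both directions. JMJ15 (AT2G34880, annotated as MEE27), an H3K4 demethylase on chromosome 2 from 14711880 to 14716634 on the minus strand, had 2 listed bins, both in coding sequence of exon 7 and both higher in miP1a-OX. In the bin at 3484 bases, 19 of 212 calls were methylated in miP1a-OX, a level of 8.96% (5.48% to 13.6%), and 2 of 354 in Col-0, a level of 0.565% (0.0685% to 2.03%). The difference was 8.40 points (two-sided Fisher's exact test, p = 4.33e-07, adjusted p = 9.12e-05). In miP1a-OX these calls covered 13 of the 42 cytosines, the number on the minus strand alone, whereas Col-0 covered all 42. Among the 48774 listed nuclear bins in which both libraries had 200 calls or more, 251 had covered cytosines equal in number to those of 1 strand in a library. The other bin, at 3684 bases, had 7 of 275 calls methylated in miP1a-OX, a level of 2.55%, and 0 of 380 in Col-0, which allows up to 0.789% (difference 2.55 points, two-sided Fisher's exact test, p = 0.0022, adjusted p = 0.0733).

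JMJ18 (AT1G30810), an H3K4 demethylase expressed in the phloem, occupies bases 10936765 to 10942292 of chromosome 1, minus strand. Its 3 listed bins differed in direction. In the bin at 2342 bases, partly coding in exon 6 and partly intronic, 0 of 413 calls were methylated in miP1a-OX, which allows up to 0.726%, and 11 of 240 in Col-0, a level of 4.58% (2.31% to 8.05%). The difference was -4.58 points (two-sided Fisher's exact test, p = 1.43e-05, adjusted p = 0.00157). As its sequence above shows, this bin has no CG dinucleotide, so the methylated calls of Col-0 were all at CHG or CHH cytosines. The bin at 3842 bases, in coding sequence of exon 8, had the opposite direction, with 8 of 326 calls methylated in miP1a-OX, a level of 2.45%, and 0 of 430 in Col-0, which allows up to 0.698% (two-sided Fisher's exact test, p = 0.00114, adjusted p = 0.0453). The third bin, 2958 bases upstream, lies in the neighbouring gene AT1G30820 and had a level of 8.62% over 464 calls in miP1a-OX and 4.15% over 410 calls in Col-0 (two-sided Fisher's exact test, p = 0.00872, adjusted p = 0.192).

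JMJ16 (AT1G08620, annotated as PKDM7D), an H3K4 demethylase that restrains leaf senescence, occupies bases 2736656 to 2743881 of chromosome 1, plus strand. Both of its listed bins were lower in miP1a-OX. In the bin at 1394 bases, 29 bases coding in exon 4 and 70 intronic, 17 of 357 calls were methylated in miP1a-OX, a level of 4.76% (2.80% to 7.51%), and 39 of 376 in Col-0, a level of 10.4% (7.48% to 13.9%). The difference was -5.61 points (two-sided Fisher's exact test, p = 0.00508, adjusted p = 0.132), and the intervals of the levels meet only at their edges. The other bin, 3006 bases upstream, reaches the window by its edge and lies in the overlapping ends of AT1G08610 and ATRX. It had 0 of 502 calls methylated in miP1a-OX, which allows up to 0.598%, and 6 of 346 in Col-0, a level of 1.73% (two-sided Fisher's exact test, p = 0.0045, adjusted p = 0.122).

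JMJ17 (AT1G63490), an H3K4 demethylase known from drought responses, lies on chromosome 1 from 23544554 to 23553232 on the minus strand and held the largest differences of the 10 genes. They lie upstream, in a stretch with no annotated gene. In the bin centred 1118 bases upstream, 113 of 250 calls were methylated in miP1a-OX, a level of 45.2% (38.9% to 51.6%), and 61 of 347 in Col-0, a level of 17.6% (13.7% to 22.0%). The difference was 27.6 points (two-sided Fisher's exact test, p = 3.04e-13, adjusted p = 4.21e-10). By the reference sequence, printed above, all 18 cytosines of this bin are in the CHH context, with 0 in the CG and 0 in the CHG context, so every methylated call placed there in either library was at a CHH cytosine. Its methylated calls in miP1a-OX far exceed the 10 cytosines of its richer strand, and removal of as many calls left a difference of 25.3 points (two-sided Fisher's exact test, p = 3.22e-11).

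The adjacent bin, 1218 bases upstream, changed in the same direction, with 141 of 415 calls methylated in miP1a-OX, a level of 34.0% (29.4% to 38.8%), and 93 of 481 in Col-0, a level of 19.3% (15.9% to 23.2%). The difference reached 14.6 points (two-sided Fisher's exact test, p = 9.38e-07, adjusted p = 0.000173). Of its 29 cytosines 4 are in the CG context and 0 in the CHG context. In the bin at 818 bases upstream the level was 44.7% over 389 calls in miP1a-OX (39.7% to 49.8%) and 33.7% over 380 calls in Col-0 (28.9% to 38.7%), a difference of 11.0 points (two-sided Fisher's exact test, p = 0.00192, adjusted p = 0.0664). The next bin outward, 1318 bases upstream, was low in both libraries and changed the other way, with 6 of 467 calls methylated in miP1a-OX (1.28%) and 16 of 346 in Col-0 (4.62%; two-sided Fisher's exact test, p = 0.00432, adjusted p = 0.118).

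Copies elsewhere bear on this stretch. Counting matches of 80 bases or more at 90% identity or higher, the bin at 1118 bases has 146 in the genome and the bin at 818 bases has 120, while the bin at 1218 bases and the other 27 bins of the JmjC genes have 0. The bins with copies had a depth of 27.8-fold and 28.8-fold in miP1a-OX and of 38.6-fold and 28.1-fold in Col-0. For those bins, reads of a copy could be placed here, and their part in the difference was not tested. Shorter or less similar matches were not counted, so a count of 0 does not show that a bin is free of repeated sequence.

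Within JMJ17 the levels were lower. In the coding bin at 682 bases the level was 8.37% over 263 calls in miP1a-OX (5.32% to 12.4%) and 16.5% over 242 calls in Col-0 (12.1% to 21.8%), a difference of -8.16 points (two-sided Fisher's exact test, p = 0.00639, adjusted p = 0.155). Col-0 covered 28 of the 39 cytosines of this bin, and miP1a-OX all of them. In the intronic bin at 7982 bases, which has no CG dinucleotide, 7 of 269 calls were methylated in miP1a-OX (2.60%) and 0 of 293 in Col-0, which allows up to 1.02% (two-sided Fisher's exact test, p = 0.00552, adjusted p = 0.14).

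**Figure D4:**
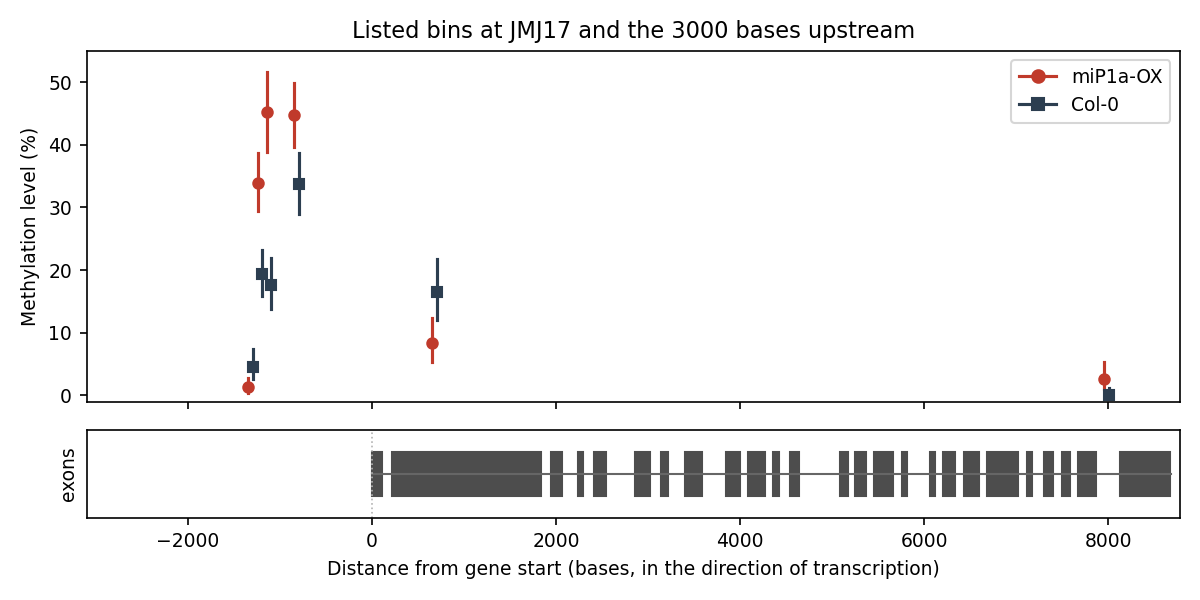
Methylation level (vertical axis, percent) of the 6 listed bins at JMJ17 against the distance from the gene start in bases, with miP1a-OX as circles, Col-0 as squares, lines for 95% Clopper-Pearson intervals and exons as blocks. The 3 bins between 818 and 1218 bases upstream stand at 34.0% to 45.2% in miP1a-OX and at 17.6% to 33.7% in Col-0.

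Among the H3K27 demethylases, ELF6 had 5 listed bins and REF6 only 1. ELF6 (AT5G04240), which delays photoperiodic flowering, occupies bases 1169153 to 1174992 of chromosome 5, plus strand. Its largest difference was at the bin 2503 bases upstream, in the pseudogene AT5G04235, where 68 of 304 calls were methylated in miP1a-OX, a level of 22.4% (17.8% to 27.5%), and 20 of 217 in Col-0, a level of 9.22% (5.72% to 13.9%). The difference was 13.2 points (two-sided Fisher's exact test, p = 7.70e-05, adjusted p = 0.00588). The bins at 2703 and 2803 bases upstream, in the same pseudogene, differed by 3.23 points and -2.42 points. Within ELF6 both listed bins were coding and lower in miP1a-OX. At 4797 bases, in exon 7, the level was 5.90% over 305 calls in miP1a-OX (3.53% to 9.17%) and 14.7% over 278 calls in Col-0 (10.8% to 19.5%), a difference of -8.85 points (two-sided Fisher's exact test, p = 0.000507, adjusted p = 0.0249). At 1197 bases, in exon 1, 0 of 337 calls were methylated in miP1a-OX, which allows up to 0.890%, and 7 of 249 in Col-0, a level of 2.81%.

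REF6 (AT3G48430), which promotes flowering by lowering FLC, occupies bases 17935256 to 17940792 of chromosome 3, plus strand. Its one listed bin, at 494 bases in the coding part of exon 1, had 10 of 272 calls methylated in miP1a-OX, a level of 3.68% (1.78% to 6.66%), and 0 of 244 in Col-0, which allows up to 1.23% (difference 3.68 points, two-sided Fisher's exact test, p = 0.00204, adjusted p = 0.0693). Within the gene both listed bins of ELF6 were lower in miP1a-OX and the one of REF6 was higher.

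JMJ13 (AT5G46910), which acts as a flowering repressor, occupies bases 19046339 to 19051379 of chromosome 5, plus strand. Like JMJ14 and JMJ16, it had all its listed bins lower in miP1a-OX, and here all 3 lie in the last part of the gene. Of all listed nuclear bins 36% were lower in miP1a-OX. The share of genes with exactly 3 listed bins, all lower, was not computed. In the coding bin at 3711 bases, in exon 9, 4 of 123 calls were methylated in miP1a-OX, a level of 3.25% (0.893% to 8.12%), and 58 of 529 in Col-0, a level of 11.0% (8.43% to 13.9%; difference -7.71 points, two-sided Fisher's exact test, p = 0.00604, adjusted p = 0.15). The depth there was 7.24-fold in miP1a-OX and 31.1-fold in Col-0. The bins at 4111 and 4311 bases had 1 of 411 and 0 of 412 calls methylated in miP1a-OX, against 11 of 343 and 7 of 302 in Col-0.

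JMJ30 (AT3G20810, annotated as JMJD5) is a JmjC protein under control of the circadian clock. It occupies bases 7275645 to 7278420 of chromosome 3, plus strand, and all 3 of its listed bins are upstream, in no annotated gene. The bin at 995 bases upstream had a level of 30.7% over 329 calls in miP1a-OX (25.8% to 36.0%) and 22.1% over 494 calls in Col-0 (18.5% to 26.0%), a difference of 8.63 points (two-sided Fisher's exact test, p = 0.00698, adjusted p = 0.165). Since 2 of its 24 cytosines are in the CG context, 8.33%, both levels exceed what CG sites could give at even coverage. The bin at 795 bases upstream, which has no CG dinucleotide, had 7 of 557 calls methylated in miP1a-OX (1.26%) and 22 of 541 in Col-0 (4.07%; two-sided Fisher's exact test, p = 0.00421, adjusted p = 0.116). Nearest to the gene, at 395 bases upstream, 11 of 589 calls were methylated in miP1a-OX (1.87%) and 0 of 476 in Col-0, which allows up to 0.630% (two-sided Fisher's exact test, p = 0.00155, adjusted p = 0.0571).

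Over the 30 bins, the share of cytosines in the CG context was close to that of all listed nuclear bins. A median of 11.4% of the cytosines were in the CG context, beside 11.1% in all listed nuclear bins. In 4 of the 30 bins no cytosine was in the CG context, as in 17.5% of all listed nuclear bins. A level above the share of CG cytosines in at least 1 library was found in 10 of the 30 bins, against 61.6% of all listed nuclear bins. Depth had a median of 20.9-fold in miP1a-OX and 19.0-fold in Col-0. The number of bins with methylated calls in Col-0 and none in miP1a-OX was 8 (26.7%), beside 12.1% of all listed nuclear bins. The number with the reverse was 6 (20%), beside 7.97%.

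Many of the 30 bins rest on few methylated calls. In 18 of them, or 60%, the library with the higher level had no more methylated calls than 1 DNA fragment can supply, that is, the cytosines of the richer strand or, where fewer, those the library covers, beside 29.6% of all listed nuclear bins. All 14 bins with no methylated call in one library are among the 18. In the JMJ15 bin at 3484 bases, 1 fragment can supply 13 of the 19 methylated calls of miP1a-OX. The 2 bins whose p by Fisher's exact test stayed at or under 0.01 after removal of such calls are those at 1118 and 1218 bases upstream of JMJ17.

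**Figure D5:**
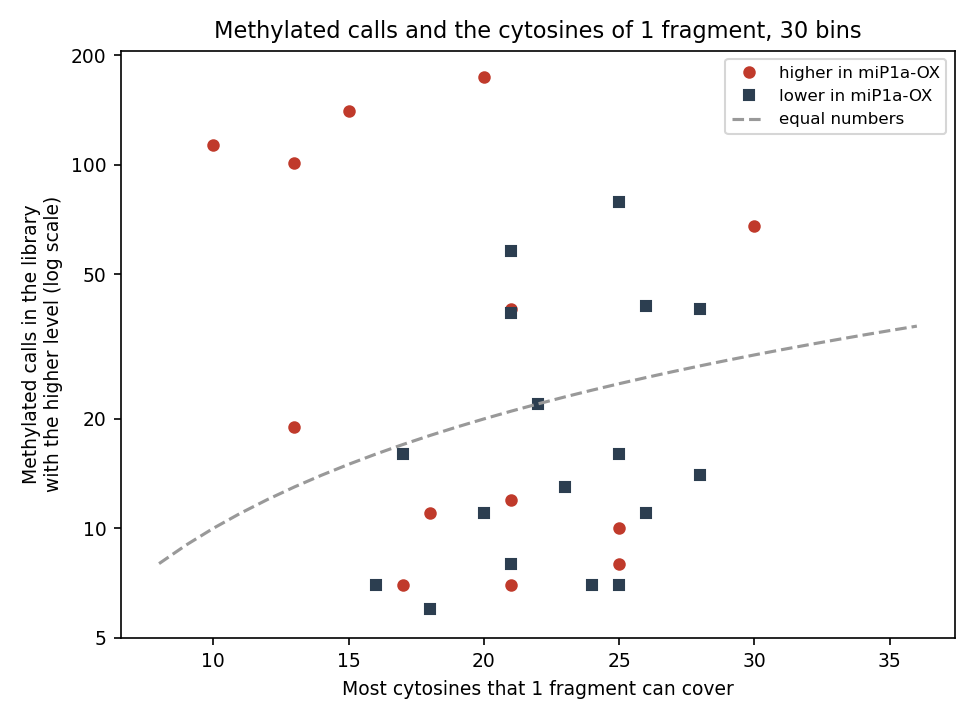
Methylated calls in the library with the higher level (vertical axis, log scale) against the most cytosines that 1 DNA fragment can cover (horizontal axis) for the 30 bins, as circles where miP1a-OX is higher and squares where it is lower. The dashed line marks equal numbers, with 18 bins on or below it.

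The lists of related chromatin genes gave a setting for these values. Listed bins were found at 23 of 27 genes, and 27.9% of all protein-coding genes had 0. Gene length was not matched, so these shares do not show an excess. NAC052 counts only through a bin that lies within NAC050. The listed bins numbered 72, of which 47 were higher and 25 lower in miP1a-OX, beside 64% higher among all listed nuclear bins. The number of the 72 bins that passed the threshold of 0.4 was 0, beside 0.4% of all listed nuclear bins. The median absolute difference of the 72 bins was 5.28 points, beside 8.03 points in all listed nuclear bins. Among the other 11 JmjC genes, 17 bins were higher and 9 lower. The 4 LSD1-type demethylases had 6 higher and 4 lower, the NAC partners of JMJ14 (NAC050 and NAC052) 2 higher and 1 lower, the 7 H3K4 methyltransferases 13 higher and 8 lower, and the 3 H3K27 methyltransferases 9 higher and 3 lower. The largest differences were upstream of JMJ31, LDL3 and NAC050. At JMJ31 the level was 53.3% over 377 calls in miP1a-OX and 35.4% over 615 calls in Col-0 (17.9 points). At LDL3 it was 28.8% over 306 calls in miP1a-OX and 12.7% over 276 calls in Col-0 (16.1 points). At NAC050 it was 44.5% over 173 calls in miP1a-OX and 29.4% over 197 calls in Col-0 (15.1 points). By two-sided Fisher's exact test the adjusted p was 1.18e-05 at JMJ31, 0.000367 at LDL3 and 0.101 at NAC050.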

How the data were processed

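Genomic DNA of 12-day-old seedlings gave 1 bisulfite library for miP1a-OX and 1 for Col-0. By the methods and the submitters' processing notes, the authors placed reads on TAIR9 with BS-Seeker2 2.1.0 and deposited counts of methylated and unmethylated calls per bin, without normalization. The columns of covered and present cytosines are not CG numbers, because the number of cytosines equals C plus G of TAIR10.1 in 100% of the listed nuclear bins. For that reason, genes were placed with TAIR10.1. The deposited p-values and the merged list of annotated regions were not used. The number of columns left out as belonging to another series was 0.

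For each bin the 4 counts were compared by Fisher's exact test, two-sided (scipy 1.17.1, python 3.11.15), and p-values were adjusted by Benjamini-Hochberg over the 1196690 bins of the reference. This treats the table as holding every bin with p of at most 0.01. Differences are miP1a-OX minus Col-0. The procedure was tested on simulated data with independent calls and large changes. That test does not cover calls that share a fragment or small differences. Depth is 2 times the calls per covered cytosine. Where no call was methylated, the upper limit is 3 calls of the total, and intervals are 95% Clopper-Pearson intervals. Copies were searched with blastn 2.17.0. Removal of 1 fragment took as many methylated calls as the richer strand has cytosines from the higher library. In an alternative chosen after seeing the data, it took no more than the cytosines that library covers. The genes, lists and alternatives were chosen with earlier results of these data known. All 10 genes are named. JMJ14 is given bin by bin, the others by their largest difference and, with up to 4 bins, each bin, while the other bins of JMJ17 and ELF6 were added after their values were seen. Of related genes the 3 largest differences are named.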

Additional observations from a re-analysis of the deposited data

How the results depend on the processing

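No paired analysis was possible because only 1 library exists per genotype, so that none could be left out either. The number of bins past the difference of 0.4 was 0 under each alternative run, except that it was 1 at a difference of at least 0.2. Narrower windows, higher call minimums, a difference of 0.5 and adjusted p can only remove bins, so their 0 was fixed in advance. A minimum of 1 call could add none, since every bin had at least 123 calls. The number of listed bins was 30 with 3000 bases upstream, 23 with 2000, 20 with 1000 and 16 for the genes alone. Of the bins, 43.3% were higher in miP1a-OX, and 20% once the median of the listed nuclear bins (5.26 points) was subtracted, which lowers it by construction. Of the 30 bins, 8 had p of at most 0.01 after adjustment and 2 after removal of the calls of 1 fragment (also 2 within the covered cytosines), counts chosen after seeing the data (Fisher's exact test). Narrower windows turned the largest difference to -8.16 points at JMJ17 (gene alone) and to -8.85 points at ELF6 (2000 bases, 1000 bases and gene alone), because the upstream bins drop out. With 1000 bases JMJ17 had 11.0 points. Centring turned REF6 to -1.59 points.

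Removal of 1 fragment left the largest difference of JMJ14 at -2.72 points (p = 0.369), JMJ16 at -0.309 (p = 0.864), JMJ18 at 0 (p = 1), ELF6 at 4.65 (p = 0.123), REF6 at 0 (p = 1), JMJ13 at -4.03 (p = 0.151) and JMJ30 at 5.78 (p = 0.0651), all by Fisher's exact test. Where every methylated call was taken, as for JMJ18 and REF6, the 0 is fixed by construction. JMJ15 came to -0.565 (Fisher's exact test, p = 0.542), but that took more calls than the 13 cytosines miP1a-OX covers there. With 13 calls taken it stayed higher in miP1a-OX, at 2.45 points (Fisher's exact test, p = 0.0283). Thinning of the deeper library left JMJ13 at -8.13 points (p = 0.0251) and JMJ30 at 7.29 (p = 0.0434), by Fisher's exact test. After adjustment the largest differences of JMJ14 (-9.50 points), JMJ16 (-5.61), REF6 (3.68), JMJ13 (-7.71) and JMJ30 (8.63) had adjusted p above 0.01. For JMJ14 this bin, also the one used for removal of 1 fragment, lies in the neighbouring gene LSD1. The 3 bins within JMJ14 had adjusted p of 0.00361, 0.000687 and 0.000116 by Fisher's exact test, but 1 fragment could supply all methylated calls of each. In the other 65 of 92 comparisons, largest differences kept their direction and their side of the threshold, counts stayed within 1.5 times and shares within their counting interval. Many of these could not change. Call minimums removed no bin, since each had at least 123 calls, narrower windows often kept the same bin, and centring left p as it was. The 65 are therefore no measure of stability.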
